A study of Mus musculus with 30 samples.

Results

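Wnt ligands, their receptors and the proteins that tune them were followed as a group of 58 protein-coding genes in cultured adipose-derived stem cells of mice. Members were taken by symbol from the 38561 genes of the count table: Wnt, Fzd, Sfrp, Rspo or Dkk followed by a digit, and Lgr4, Lgr5, Lgr6, Znrf3, Rnf43, Lrp5, Lrp6, Axin1, Axin2, Ctnnb1, Tcf7, Tcf7l1, Tcf7l2, Lef1, Wif1, Notum and Porcn. An antisense transcript, Rspo4os, matched the symbol rule and was left out because it is not protein coding. The members were 19 ligands, 12 receptors and co-receptors, 9 genes of the R-spondin axis, 10 secreted inhibitors, 4 core genes and 4 TCF/LEF factors. The cells came from inguinal (subcutaneous) fat of male C57BL6/J mice of a commercial diet-induced obesity colony; the labels give this strain as the genotype of all groups and name no transgene or deletion. They were sorted as Sca-1+ CD34+ CD31- CD45- Ter119- and grown in culture to passage 2, so all values are those of cultured cells. Lean mice ate a control chow and obese mice a lard diet with 60% of its energy as fat from weaning, and cells were taken at an age of 20 weeks (young) or 52 weeks (aged). Lean mice gave 8 young and 8 aged libraries and obese mice 8 young and 6 aged ones, 1 per mouse, named by group and mouse number. Per the labels, the study was ended early and 8 of 12 aged obese mice purchased were then alive. In obese mice, age and time on the diet cannot be told apart.

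Wnt proteins are secreted lipid-modified ligands that Porcn acylates and that bind Frizzled receptors together with the co-receptors Lrp5 or Lrp6. In the canonical branch this stops the Axin-containing destruction complex from degrading beta-catenin, the product of Ctnnb1, which then acts with TCF/LEF factors on target genes. R-spondins bind Lgr4, Lgr5 or Lgr6 and remove the ubiquitin ligases Znrf3 and Rnf43, which otherwise clear Frizzled receptors from the cell surface. Sfrp proteins and Wif1 bind Wnt ligands, Dkk1, Dkk2 and Dkk4 act on Lrp5 and Lrp6, and Notum removes the lipid of the ligand. In adipose progenitors, canonical Wnt signals such as that of Wnt10b are known to hold back adipogenesis.

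Counts in genes ranged from 30597765 to 47970233 per library. Libraries of a group were compared pairwise by chi-square per gene, which lay between 6.79 (young obese 19 and 21) and 516 (aged obese 10 and 17), where 1 is sampling noise, so no pair looked like a library deposited again. Several libraries stood apart within their group. Young obese 1 and 2 (8.75) lay close to each other, as did young obese 19, 20 and 21 (6.79 to 8.65). Young obese 18 and 23 lay 18.4 to 23.7 from young obese 19, 20 and 21 and from each other. Young obese 1 and 2 lay 167 to 219 from all of these, and young obese 22 lay 135 to 398 from every other library of the group. The tests count each library as a separate mouse. Leaving out 1 library of a close cluster leaves others like it, so it is a weak check of calls that use young obese mice. Within their group, aged obese 10 and 12 had the lowest summed level of 8 adipose stem cell markers (1669 and 1889 CPM, counts scaled to library size, while the other aged obese libraries had 2225 to 3215). Ly6a, which encodes Sca-1, had 176 and 362 CPM there, and all others had 549.5 to 1254 CPM. Cd34 reached only 0.193 CPM in aged obese 10 and up to 38 CPM in aged obese 15. Low Cd34 was not limited to the aged obese group. It was at 0.912 to 2.79 CPM in young obese 18 to 23 and 1.07 to 3.54 in aged lean 12, 13 and 17. Young lean libraries had 4.8 to 22.6 CPM of Cd34, and young obese 1 and 2 had 26.1 and 27.9 CPM. Pdgfra, Dpp4 and Pi16 were also lowest within the group in aged obese 10 and 12. Icam1 went the other way, at 18 CPM in aged obese 10, the highest of all libraries, and 13.5 CPM in 12. Cd44 had 620.5 and 533 CPM there (medians 194 in young lean and 577 in aged obese libraries). Thy1 had 746 and 807 CPM (young lean 679 to 1055). The summed level of 6 leukocyte markers was 12 to 36.8 CPM over all libraries, led by Csf1r (up to 30.7 CPM), while Ptprc reached at most 0.029 CPM. That of 6 endothelial markers was 1.28 to 20.9 CPM, led by Tek (up to 16.2 CPM), while Pecam1 reached at most 0.278 CPM. The summed level of 9 mural cell markers was 539.6 to 843 CPM for young lean mice, 509 to 868 for young obese, 584 to 947 for aged lean and 707 to 1529.5 CPM for aged obese mice. Of these, Pdgfrb reached 1194 CPM, Des 278, Myh11 275, Cspg4 105, Notch3 68.1 and Mcam 54.6 CPM, each in an aged obese library (Des and Myh11 in aged obese 10), whereas Rgs5 reached 4.66 CPM and Kcnj8 0.237 CPM. The summed level of 6 proliferation genes ran from 67.3 to 782 CPM in aged obese, 77.9 to 616 in aged lean, 123 to 757 in young obese and 223 to 490.1 CPM in young lean libraries. In bulk libraries, fewer cells of a type and less RNA per cell cannot be told apart.

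Of the 58 members 40 passed the filter on low counts and were tested among 14438 genes: 9 ligands, 11 receptors, 6 genes of the R-spondin axis, 6 secreted inhibitors and all 8 core and TCF/LEF genes. The other 18 reached at most 0.74 CPM (Wnt1 in aged obese 15), and 16 of them stayed below 0.5 CPM in every library. They included Dkk1, Wif1, Rnf43, Rspo1 and the canonical ligands Wnt1 and Wnt3a. Wnt3a had 0 counts in all 30 libraries, which allows a level of up to 0.00274 CPM over all of them, for counting error only.

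Per kilobase of exon, the scale on which genes can be compared, the secreted inhibitor Sfrp1 was the most abundant member, with a mean of 361 CPM per kilobase over the 30 libraries. Ctnnb1 followed with 89 CPM per kilobase, then the receptor Fzd2 with 32.1 and Dkk3, grouped here with the secreted inhibitors by family, with 30.3. Fzd7 reached 18.9, Lgr4 18.6, Fzd1 16.1, Dkk2 12.1 and Axin1 11.9 CPM per kilobase. No ligand came near these levels: Wnt5a, a mostly non-canonical ligand, was the highest at 3.74 CPM per kilobase, followed by Wnt16 with 2.9 and Wnt9a with 2.64. Sfrp1 alone made up a median 46.9% of the summed level per kilobase of all members in young lean, 56.4% in young obese, 49.9% in aged lean and finally 63.2% in aged obese libraries. In aged obese libraries this share ran from 19.5% to 71.4%. Among the genes usually read as pathway output, Axin2 stood at 0.0796, Lef1 at 0.0753 and Lgr5 at 0.108 CPM per kilobase, all far below Ctnnb1.

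**Figure D1:**
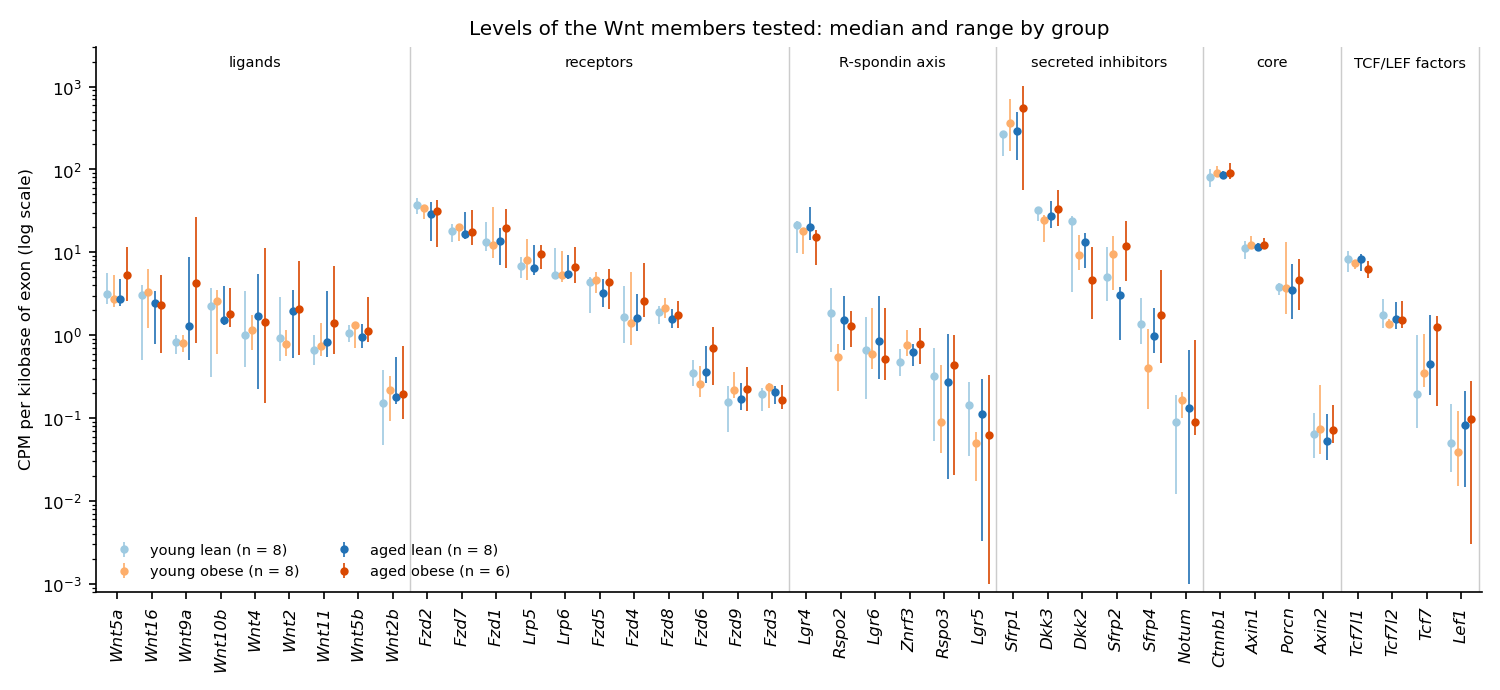
Level of each of the 40 tested members in CPM per kilobase of exon (log axis), ordered by role; points are group medians and bars run from the lowest to the highest library, with a count of 0 drawn at the foot of the axis. The median of Sfrp1 lies above that of all other members in each group, and the bars of the ligands Wnt9a, Wnt4, Wnt2 and Wnt11 are longest in aged libraries.

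In all, 9 members passed the test (edgeR quasi-likelihood, Benjamini-Hochberg adjusted p below 0.05 over all genes) in at least 1 of 6 comparisons, with 15 calls. Where a member is said to pass or not, this is edgeR with all libraries unless another tool or setting is named. With age in obese mice 4 members rose (Wnt9a, Fzd6, Rspo2, Sfrp4) and 0 fell, where 3.07% of all genes were called, 1.87% as higher and 1.2% as lower. With obesity in young mice Znrf3 rose (background 3.46%) and Rspo2 and Sfrp4 fell (5.37%). These 3 of 40 members are close to the 8.83% of all genes called there in either direction. With obesity in aged mice Sfrp2 rose, against 0.222% of all genes in either direction and 0.166% as higher. Between aged obese and young lean mice Wnt9a, Wnt11, Fzd6, Znrf3 and Sfrp2 were higher (background 5.62%) and Dkk2 and Tcf7l1 lower (4.65%), against 10.3% of all genes in either direction. With age in lean mice 0 members and 0.0% of all genes were called. There 2 members (Wnt9a and Sfrp2) had an unadjusted p below 0.05, as did 5.35% of all genes, and DESeq2 and voom called 0 members as well. At an unadjusted p below 0.05 there were 11 of 40 members with age in obese mice (18.9% of all genes), 9 with obesity in young mice (28.3%), 11 with obesity in aged mice (12.7%) and 14 between aged obese and young lean mice (28.0%). The comparisons share libraries, so a group that lies low or high enters several of them. The counts depended on single libraries. The share of all genes called moved with them. With age in obese mice 1 member was called without aged obese 15 (0.296% of all genes), 8 when aged obese 10 (4.77%) or aged obese 16 (7.06%) was left out. With obesity in young mice 1 member was called without young lean 7, 26 or 27 (2.1%, 1.39% and 2.24% of all genes). With obesity in aged mice 7 were called without aged lean 16 (Wnt9a, Wnt11, Wnt5a, Fzd6, Lgr4 and Tcf7l1 beside Sfrp2), where 3.02% of all genes were called, and 3 without aged obese 16 (2.19%). Between aged obese and young lean mice 4 were called without aged obese 15 (4.42%) and 11 without aged obese 16 (16.5%). Without both aged obese 10 and 12 these comparisons gave 10 with age in obese mice (18.3%), 0 with obesity in aged mice (0.0614%) and 8 between aged obese and young lean mice (10.3%). Without both young obese 1 and 2 age in obese mice gave 8 (4.46%) and obesity in young mice 2 (0.993%). Of the 15 calls, 5 held when each library of the compared groups was left out in turn: Fzd6 with age in obese mice, Rspo2 with obesity in young mice, Sfrp2 with obesity in aged mice, and Wnt9a and Dkk2 between aged obese and young lean mice.

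**Figure D2:**
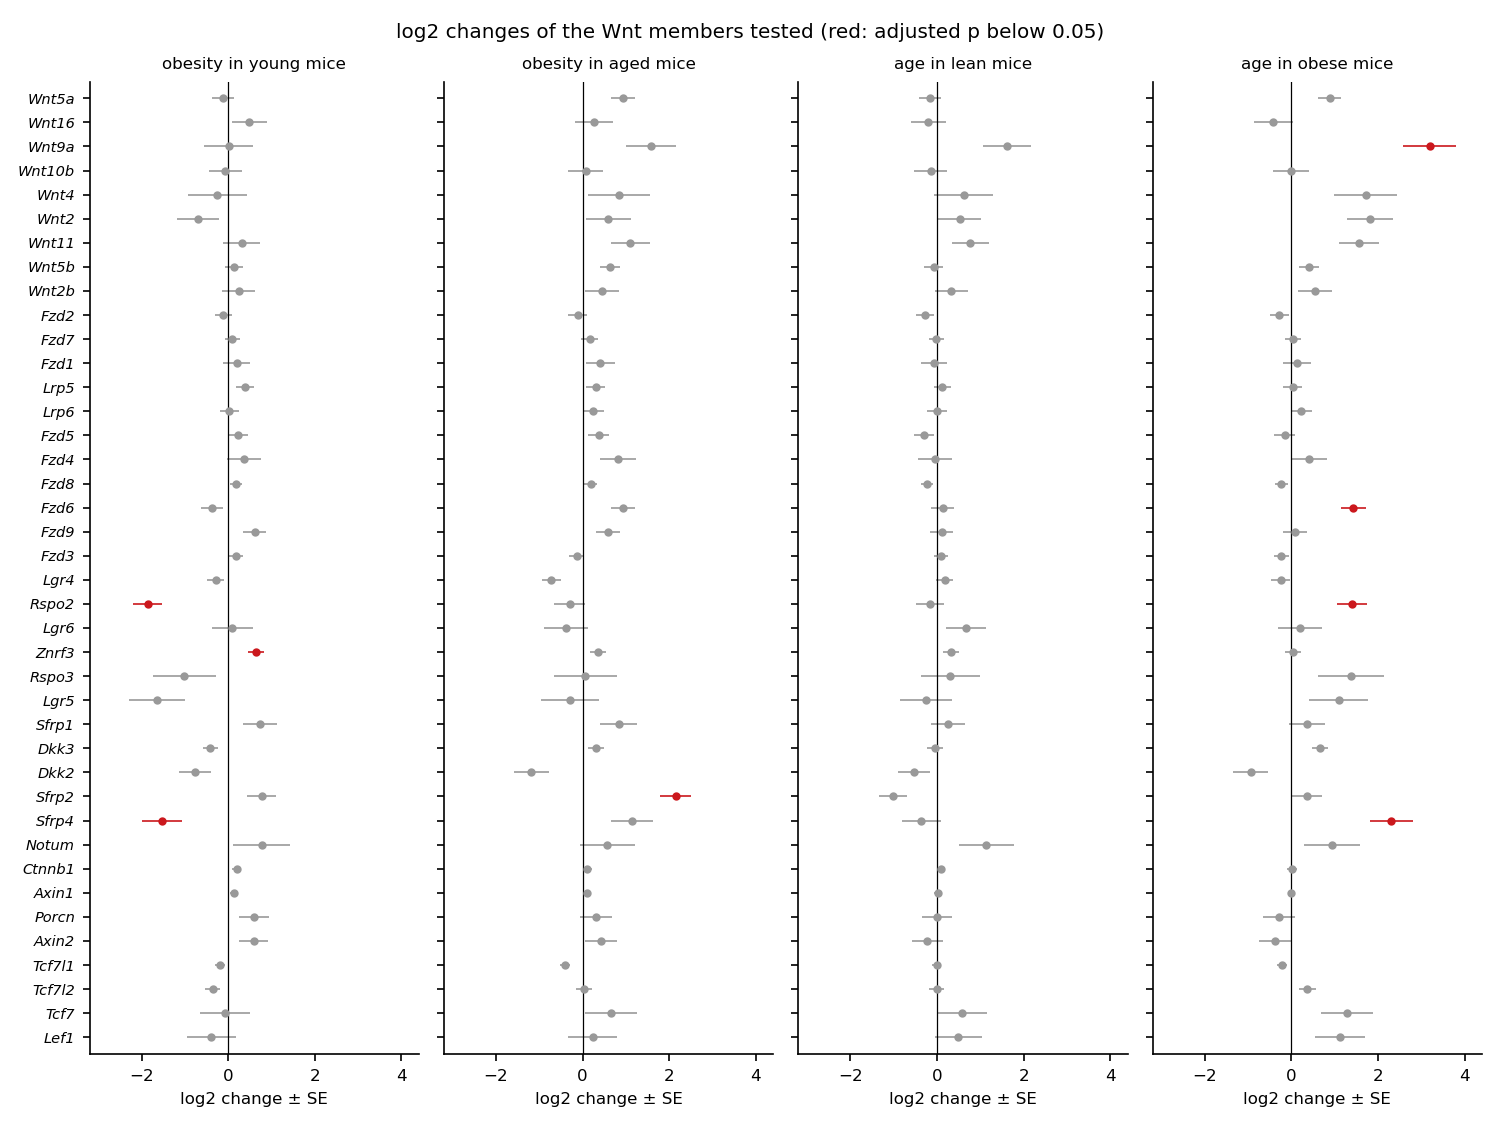
Log2 change with its SE for the 40 tested members in 4 comparisons, with members that passed the test in red. For age in obese mice 28 of 40 members lie above 0 and for obesity in aged mice 32 of 40, while age in lean mice shows 21 of 40 and no red point. The median log2 change over all genes was 0.01, 0.01 and -0.02 in these comparisons. Members were measured in the same libraries, so their signs are not independent.

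Wnt9a, a ligand of the canonical branch, had the largest change of all calls. It ranged from 2.0 to 3.35 CPM (median 2.78) in young lean libraries, 2.09 to 3.38 (2.71) in young obese ones, 1.68 to 29.2 (4.25) in aged lean and 2.67 to 89.8 CPM (14.1) in aged obese libraries. All 16 young libraries were thus low and close together, while aged libraries spread widely and 1 aged obese library, 16, stayed within the young range. Wnt9a rose with age in obese mice by 3.19 ± 0.61 on the log2 scale (SE, adjusted p = 0.00852) and was higher in aged obese than in young lean mice by 3.20 ± 0.61 (adjusted p = 0.00429). With age in lean mice the log2 difference was 1.62 ± 0.56 (adjusted p = 0.85), with aged lean 15 and 16 at 16.8 and 29.2 CPM. Without aged obese 15, the library at 89.8 CPM, the rise with age in obese mice was 2.16 and no longer passed (adjusted p = 0.0696).

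Wnt11, a mostly non-canonical ligand, was at 1.83 to 4.14 CPM (median 2.72) in young lean libraries, 2.35 to 5.86 (3.04) in young obese ones, 2.25 to 14 (3.4) in aged lean and 2.44 to 28.0 CPM (5.78) in aged obese libraries. Only the upper aged libraries left the young range, led by aged obese 15 and 17 and aged lean 16. It was higher in aged obese than in young lean mice by 1.87 ± 0.46 on the log2 scale (adjusted p = 0.0133), a call that ended without aged obese 15 (1.30, adjusted p = 0.0754) and in a fit of the compared groups only (adjusted p = 0.0536). Of the exon bases of Wnt11, 8.8% lie in exons of another gene as well, so its counts are less certain.

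Wnt5a was at 18.5 to 44.7 CPM (median 24.5) in young lean libraries, 17.3 to 41.6 (21.2) in young obese ones, 17.7 to 37.6 (21.5) in aged lean and 20.1 to 91.3 CPM (41.7) in aged obese libraries. Aged obese 14, 15 and 17 lay above every other library, and the other 3 aged obese libraries within the range of the other groups. With age in obese mice the log2 change was 0.88 ± 0.27 and did not pass in edgeR with all libraries (adjusted p = 0.0635). It passed with DESeq2 (0.89, adjusted p = 0.0307), voom with quality weights (0.97, adjusted p = 0.00319), a length and GC offset (0.95, adjusted p = 0.0355), without young obese 1 and 2 (1.16, adjusted p = 0.0183) and without aged obese 10 and 12 (1.19, adjusted p = 0.0078). The other 5 of these 10 alternatives gave no call (adjusted p up to 0.164), nor did 10 of 14 fits without 1 library (up to 0.326). Voom and the fit without aged obese 10 and 12 also called far more of all genes. With obesity in aged mice the log2 change of Wnt5a was 0.93 (adjusted p = 0.13). It passed with voom (0.96, adjusted p = 0.0452) and with a proliferation covariate (0.74, adjusted p = 0.0471), but not in the other 10 of 12 alternatives. Wnt2 and Wnt4, named here after their values were seen, also had their highest aged obese values in these libraries. Wnt2 was highest in aged obese 15 (17.6 CPM), 14 (8.68) and 17 (7.97), and the other 3 had 1.31 to 1.48 CPM. Wnt4 was at 47.7 CPM in aged obese 15, 34.7 in 17 and 10.3 in 14, and at 0.642 to 1.8 CPM in the other 3. Aged lean 16 (23.3 CPM), aged lean 13 (17), young lean 7 (14.2) and young lean 1 (11.6) lay above aged obese 14. With age in obese mice Wnt4 was at 1.71 ± 0.73 on the log2 scale (adjusted p = 0.192). Wnt2 was at 1.82 ± 0.53, just short of the threshold (adjusted p = 0.0521), and was called by DESeq2 (1.83, adjusted p = 0.0124) and with a filter of at least 1 CPM in 6 libraries (1.84, adjusted p = 0.0485). Wnt16 was at a median of 13.2, 14.4, 10.6 and 10 CPM in libraries ordered as young lean, young obese, aged lean, aged obese, with ranges that overlapped throughout.

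The 9 tested ligands had a median log2 change of 0.88 with age in obese mice (all genes 0.01), 0.64 with obesity in aged mice (0.01), 0.33 with age in lean mice (-0.02) and 0.01 with obesity in young mice (-0.02). These medians cover only ligands that passed the filter. Aged obese 15 and 17 and aged lean 16, the 3 libraries highest in Wnt9a and Wnt11, had summed levels of proliferation genes of 95.6, 67.3 and 93.4 CPM, whereas aged obese 10 and 12 had 782 and 579.7 CPM. Other ligands and libraries differed: Wnt5b was highest in aged obese 12 and 10 (7.78 and 6.4 CPM), Wnt2b in aged obese 10 (3.08 CPM) and Wnt10b in aged lean 19 (13.2 CPM). Aged lean 13, with a proliferation sum of 579 CPM, had 17 CPM of Wnt4 and 6.13 of Wnt2, above aged lean 15 (77.9 CPM) with 6.48 and 2.18 CPM. Wnt9a had exceptions too. Young obese 1 and 2, with proliferation sums of 128 and 123 CPM, had only 3.38 and 3.29 CPM of Wnt9a. Aged obese 10 and 12 had 5.46 and 7.88 CPM of Wnt9a, above aged obese 16 with 2.67 CPM and a proliferation sum of 235 CPM. Aged obese 15 also had the highest summed level of mural markers (1529.5 CPM, of which Pdgfrb 1194 CPM), whose part in the result was not tested. The markers were mixed there. Cspg4 (105 CPM) and Rgs5 (4.66 CPM) were highest of all libraries. Des (26.3 CPM) was lowest of the aged obese libraries, and Myh11 (107 CPM) lay below aged obese 10 (275 CPM). With the proliferation level as a covariate Wnt9a was at 1.87 for age in obese mice (adjusted p = 0.0187) and Wnt11 at 0.95 between aged obese and young lean mice (adjusted p = 0.0311). Without aged obese 10 and 12, Wnt11, Wnt2, Wnt4 and Wnt5a were called with age in obese mice beside Wnt9a. That fit also called far more of all genes than the fit of all libraries, as given above.

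**Figure D3:**
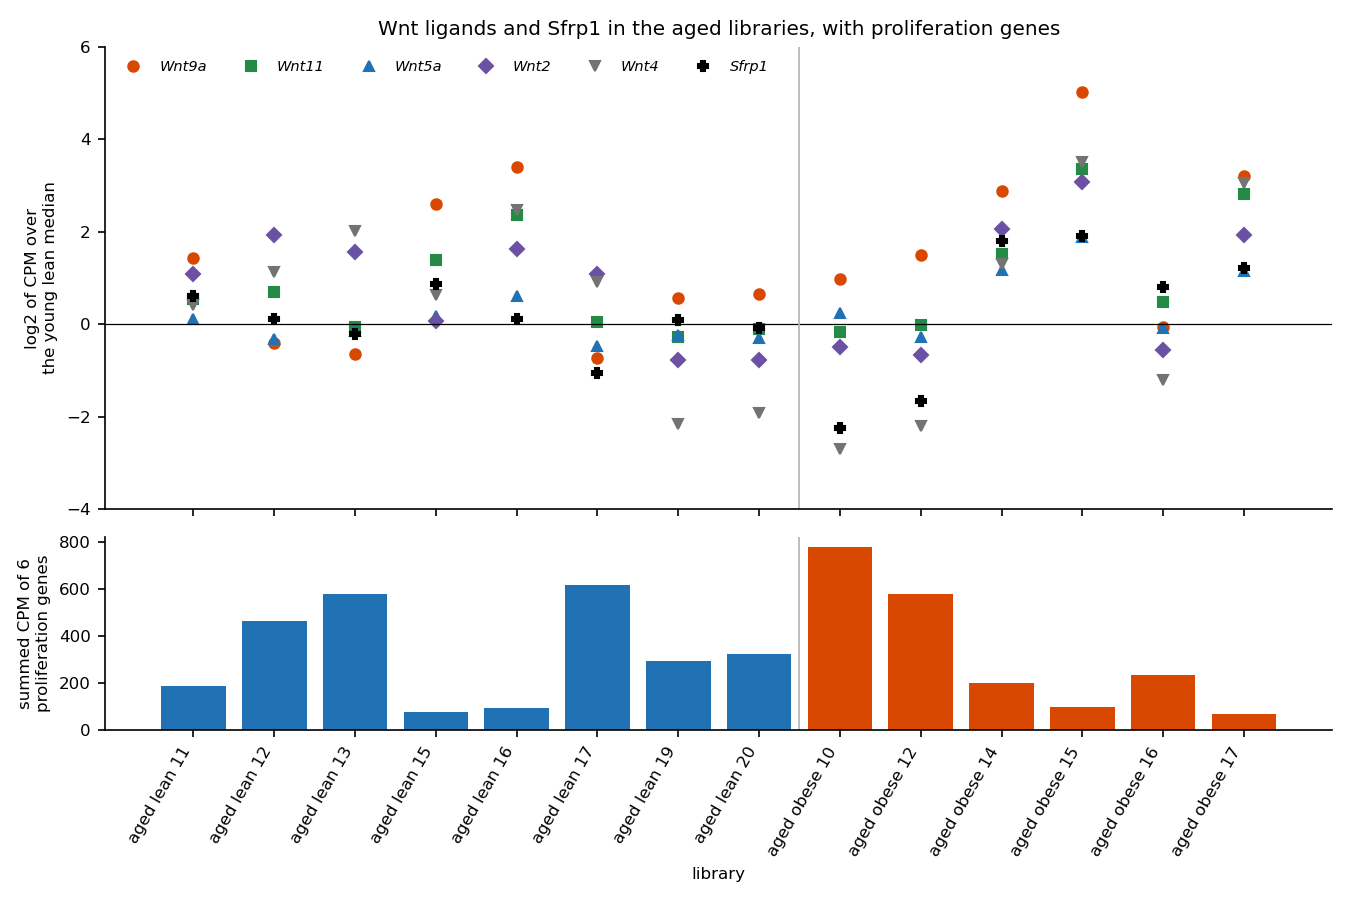
Top, log2 of the CPM of 5 ligands and Sfrp1 in each aged library over the young lean median; bottom, summed CPM of 6 proliferation genes in the same libraries (bars from 0). Aged obese 15 and 17 and aged lean 16 have the 3 highest Wnt9a and Wnt11 levels and proliferation sums of 95.6, 67.3 and 93.4 CPM, whereas Sfrp1 lies lowest in aged obese 10 and 12.

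Among the receptors Fzd6, a Frizzled known for its role in planar cell polarity, was the only one called by edgeR with all libraries. It was at 1.18 to 2.45 CPM (median 1.71) in young lean libraries, 0.862 to 2.04 (1.23) in young obese ones, 1.29 to 3.61 (1.72) in aged lean and 1.22 to 6.03 CPM (3.36) in aged obese libraries. Aged obese 10 and 12 were highest with 5.29 and 6.03 CPM and aged obese 16 lowest, within the young obese range. Fzd6 rose with age in obese mice by 1.43 ± 0.28 on the log2 scale (adjusted p = 0.00889), and by 0.94 (adjusted p = 0.0245) without aged obese 10 and 12. It was higher in aged obese than in young lean mice by 1.05 ± 0.28 (adjusted p = 0.0172), which ended without aged obese 12 (0.84, adjusted p = 0.059) and without aged obese 10 and 12 (0.57, adjusted p = 0.163). The more abundant Fzd2, Fzd7, Fzd1, Lrp5 and Lrp6 did not pass in edgeR with all libraries. With age in obese mice voom with quality weights called Fzd1, Fzd3, Fzd4 and Lrp6 beside Fzd6 (19.9% of all genes called), and Fzd4 was called without young obese 1 and 2. With obesity in young mice voom called Fzd3 and Fzd6, and a proliferation covariate Lrp5. Both settings also called far more of all genes there than the main fit, so these calls are not read as a result about receptors. Fzd2 had group medians of 136, 126, 106 and 115 CPM in libraries ordered as young lean, young obese, aged lean, aged obese, Fzd7 of 81.4, 91.1, 75.3 and 80.8 CPM, and the co-receptor Lrp6 of 72.7, 72.7, 75.2 and 91.7 CPM. The log2 differences of these 3 lay between -0.39 ± 0.22 (Fzd2, aged obese against young lean, adjusted p = 0.253) and 0.26 ± 0.24 (Lrp6, same comparison, adjusted p = 0.506). Fzd1 reached 0.41 ± 0.33 with obesity in aged mice (adjusted p = 0.658) and Lrp5 0.42 ± 0.22 between aged obese and young lean mice (adjusted p = 0.204). The median log2 change of the 11 tested receptors was 0.04 with age in obese mice and 0.30 with obesity in aged mice (all genes 0.01 in both).

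In the R-spondin axis the ligand Rspo2 was lowest in young obese libraries. It was at 3.25 to 18.9 CPM (median 9.45) in young lean libraries, 1.08 to 4.02 (2.83) in young obese ones, 3.35 to 15.3 (7.75) in aged lean and 3.66 to 10.1 CPM (6.63) in aged obese libraries. All 8 young obese libraries lay below the young lean median, and only young lean 1 lay within their range. Rspo2 fell with obesity in young mice by 1.86 ± 0.34 on the log2 scale (adjusted p = 0.00884), and the change was -2.0 (adjusted p = 0.0314) without young obese 1 and 2. It rose with age in obese mice by 1.40 ± 0.35 (adjusted p = 0.031), with 6 of 6 libraries above the young obese median, and both comparisons use the young obese libraries. The second call ended without aged obese 12, 14 or 15 or young obese 19, 20 or 21 (log2 1.27 to 1.46, adjusted p = 0.0541 to 0.076). With obesity in aged mice the difference was -0.30 ± 0.35 (adjusted p = 0.801). The difference between the obesity effects at both ages was 1.56 ± 0.48 and did not pass (adjusted p = 0.411).

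Znrf3, the ubiquitin ligase that R-spondins remove, was at 2.51 to 5.34 CPM (median 3.79) in young lean libraries, 4.42 to 9.17 (5.94) in young obese ones, 3.32 to 6.24 (5.02) in aged lean and 3.54 to 9.59 CPM (6.18) in aged obese libraries. The groups overlapped, with young obese 1 and 2 highest among young and aged obese 10 among aged libraries. Young obese 1 and 2 were low in proliferation genes (128 and 123 CPM, the other young obese libraries 452 to 757). Aged obese 10 and 12, with Znrf3 at 9.59 and 7.57 CPM, were high in them (782 and 579.7 CPM). Znrf3 rose with obesity in young mice by 0.64 ± 0.18 on the log2 scale (adjusted p = 0.0306), with 8 of 8 libraries above the lean median, and between young lean and aged obese mice by 0.67 ± 0.19 (adjusted p = 0.0255). The first call ended without young obese 1 and 2 (0.46, adjusted p = 0.13) and without any of young lean 7, 23, 26 or 27 or young obese 1 or 2 alone (0.54 to 0.65, adjusted p = 0.0521 to 0.0837). The second ended without aged obese 10, 12 or 15 or young lean 26 (0.54 to 0.65, adjusted p = 0.0519 to 0.0731).

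No R-spondin receptor passed in edgeR with all libraries. Lgr4, by far the most abundant, had medians of 125, 107, 119.7 and 90 CPM in libraries ordered as young lean, young obese, aged lean, aged obese, and all 6 aged obese libraries lay below the aged lean median (log2 -0.72 ± 0.22, adjusted p = 0.146). It was called with obesity in aged mice without aged lean 16, and between aged obese and young lean mice without young lean YL512. Lgr5 was at 0.355 to 2.81 CPM (median 1.47) in young lean and 0.181 to 0.691 CPM (0.514) in young obese libraries, with a log2 difference of -1.64 ± 0.64 (adjusted p = 0.0923). It passed in a fit of the young groups only (-1.64, adjusted p = 0.0136) and with voom (-1.59, adjusted p = 0.00881). Lgr6 ranged from 1.16 to 20.3 CPM over all groups, with medians of 4.61, 4.12, 5.79 and 3.53 CPM.

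Among the secreted inhibitors, Sfrp2 was at 5.59 to 25 CPM (median 10.9) in young lean libraries, 7.51 to 33.9 (20.7) in young obese ones, 1.88 to 8.15 (6.62) in aged lean and 9.72 to 51.5 CPM (25.4) in aged obese libraries. Every aged obese library lay above every aged lean library. This was the only tested member with ranges that did not overlap in any comparison of 2 groups. Such ranges were found in 0.187% of all genes with obesity in aged mice, 1.61% with obesity in young mice, 1.18% with age in obese mice, 0.00693% with age in lean mice and 1.04% between aged obese and young lean mice. Sfrp2 rose with obesity in aged mice by 2.15 ± 0.36 on the log2 scale (adjusted p = 0.00871). It was at 1.76 without aged obese 10 and 12 (adjusted p = 0.0504) and at 2.15 in a fit of the aged groups only (adjusted p = 0.0779). In young mice the difference with obesity was 0.77 ± 0.33 (adjusted p = 0.124), and the difference between the 2 obesity effects was 1.38 ± 0.48 (adjusted p = 0.537). Between aged obese and young lean mice it was higher by 1.13 ± 0.35 (adjusted p = 0.0373), a call that ended without aged obese 10, 12 or 15 or young lean 7, 23, 24, 25, 26 or 27 (0.84 to 1.14, adjusted p = 0.0528 to 0.131). Of the exon bases of Sfrp2, 16.1% also lie in exons of another gene.

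Sfrp4 was at 3.3 to 11.9 CPM (median 5.76) in young lean libraries, 0.542 to 4.93 (1.7) in young obese ones, 2.53 to 8.84 (4.11) in aged lean and 1.91 to 25.8 CPM (7.38) in aged obese libraries. Young obese libraries were lowest, with young obese 1 and 2 alone reaching the young lean range. Sfrp4 fell with obesity in young mice by 1.53 ± 0.47 on the log2 scale (adjusted p = 0.0405) and rose with age in obese mice by 2.31 ± 0.50 (adjusted p = 0.0159), 2 comparisons that share the young obese libraries. The fall no longer passed without young lean 7, 25, 26 or 27 or any of young obese 18 to 23 (log2 -1.61 to -1.32, adjusted p = 0.0549 to 0.113), and was -2.32 (adjusted p = 0.0314) without young obese 1 and 2. The rise ended without aged obese 15 (2.15, adjusted p = 0.0599) and in a fit of the obese groups only (2.31, adjusted p = 0.0684). The obesity effect differed between ages by 2.67 ± 0.67, the largest interaction of a member, and did not pass (adjusted p = 0.279). It was 3.45 (adjusted p = 0.0315) without young obese 1 and 2.

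Sfrp1 ranged from 634 to 1259.7 CPM (median 1173) in young lean libraries, 733 to 3101 (1598) in young obese ones, 568 to 2161 (1257) in aged lean and 249 to 4404 CPM (2386) in aged obese libraries. Aged obese 10 and 12 held the lowest levels of all 30 libraries (249 and 372 CPM), while the other 4 aged obese libraries ran from 2044 to 4404 CPM. Between aged obese and young lean mice the log2 difference was 1.09 ± 0.42 (adjusted p = 0.0879), and DESeq2 called it (adjusted p = 0.0479). Without aged obese 10 and 12 that difference was 1.62 (adjusted p = 0.0066), and without either of them alone 1.35 (adjusted p = 0.0263) and 1.31 (adjusted p = 0.0374).

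Dkk2, an antagonist at Lrp5 and Lrp6, was at 12.3 to 103 CPM (median 87.8) in young lean libraries, 22.4 to 60.5 (34.3) in young obese ones, 23.8 to 63.0 (49.7) in aged lean and 5.89 to 42.6 CPM (17.1) in aged obese libraries. Young lean 1 and 7 were far below the rest of their group (12.3 and 16.9 CPM, the others 49.2 to 103), so young lean and aged obese ranges overlapped. Dkk2 was lower in aged obese than in young lean mice by a log2 difference of -1.71 ± 0.42 (adjusted p = 0.0128), and it was -1.34 (adjusted p = 0.0493) without aged obese 10 and 12. In a fit of the compared groups only it was -1.70 (adjusted p = 0.0777) and with voom -1.42 (adjusted p = 0.0751). The single steps of age and obesity gave log2 differences of -0.53 to -1.18 and did not pass in edgeR with all libraries (smallest adjusted p = 0.165), while voom called Dkk2 with obesity in young mice. Dkk3 was at a median of 109, 81.9, 93.4 and 112 CPM in libraries ordered as young lean, young obese, aged lean, aged obese and came close to the threshold with age in obese mice (log2 0.66 ± 0.19, adjusted p = 0.052).

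**Figure D4:**
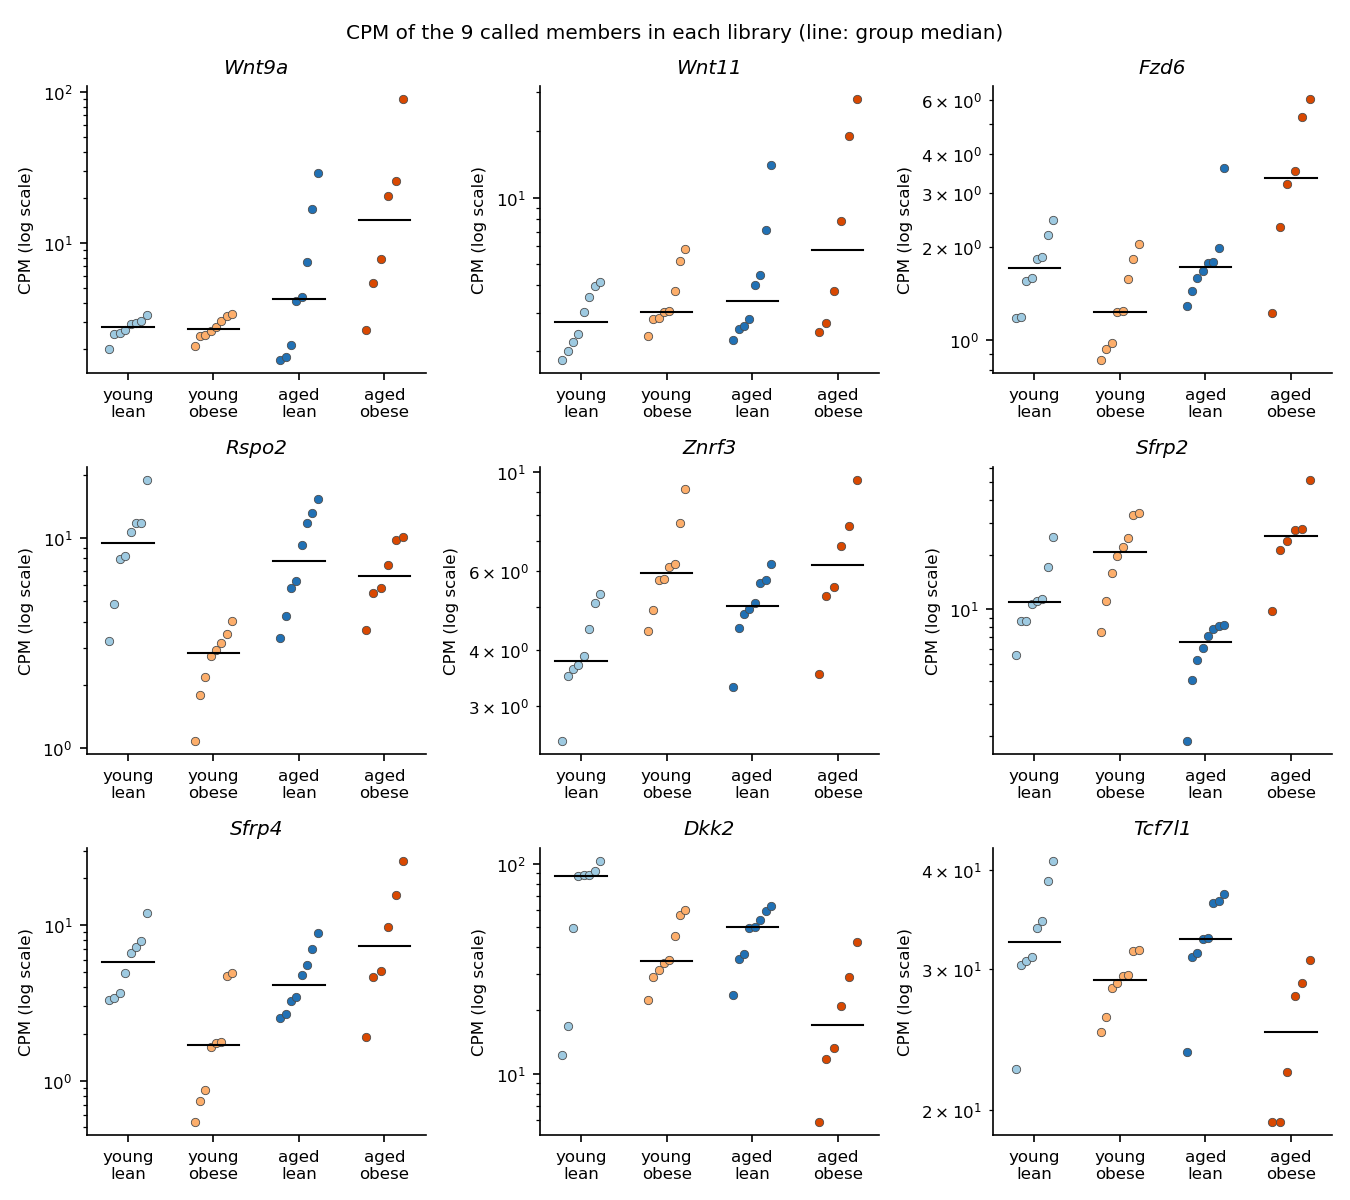
CPM in each library (log axes that differ between panels) of the 9 members that passed the test in at least 1 comparison; points are libraries sorted within a group and lines are group medians. Wnt9a spreads in aged libraries only, Rspo2 and Sfrp4 are lowest in young obese libraries, and the aged obese and aged lean points of Sfrp2 do not overlap.

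None of the 4 core genes passed in edgeR with all libraries. Ctnnb1 was at 321 to 529.9 CPM (median 416) in young lean libraries, 426 to 577 (469.5) in young obese ones, 423 to 492 (449) in aged lean and 396 to 616 CPM (474) in aged obese libraries, with log2 differences between 0.01 ± 0.11 and 0.21 ± 0.11. Of its exon bases 14.6% are shared with another gene. Axin1, the scaffold of the destruction complex, had medians of 42.9, 46.8, 44.2 and 46.6 CPM. Porcn had medians of 11.4, 11.2, 10.6 and 14.1 CPM, with young obese 1 and 2 apart from their group at up to 39.7 CPM, and was called with a proliferation covariate with age in obese mice and with obesity in young mice. Axin2, a common readout of canonical signalling, stayed low in all groups (medians 0.357, 0.407, 0.292 and 0.399 CPM, highest 1.38 CPM in young obese 2).

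Of the TCF/LEF factors Tcf7l1, mainly a repressor of target genes, was at 22.5 to 41.0 CPM (median 32.5) in young lean libraries, 25 to 31.7 (29.1) in young obese ones, 23.6 to 37.3 (32.8) in aged lean and 19.3 to 30.8 CPM (25) in aged obese libraries. All 6 aged obese libraries lay below the young lean median, yet the ranges overlapped. It was lower in aged obese than in young lean mice by a log2 difference of -0.41 ± 0.12 (adjusted p = 0.031), which ended without aged obese 10, 12 or 17 or young lean 7 or young lean YL512 (-0.38 to -0.33, adjusted p = 0.0554 to 0.0894) and without aged obese 10 and 12 (-0.25, adjusted p = 0.17). Tcf7l2 had medians of 15.3, 12.2, 13.9 and 13.4 CPM. Tcf7, at medians of 0.507, 0.927, 1.19 and 3.28 CPM, was at 3.17 to 4.44 CPM in 4 of 6 aged obese libraries and at 0.369 and 0.5 CPM in the other 2 (age in obese mice, log2 1.29 ± 0.60, adjusted p = 0.239). Lef1 ran from 0.0263 to 2.47 CPM in aged obese libraries alone and passed nowhere.

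Promoters of the called members were read from RefSeq (GRCm38.p6), which held 47 promoters of 37 of the 58 members; Rspo2, Sfrp4, Fzd6 and Znrf3 were not among them. The 250 bases before the transcription start are printed for the 5 called members it held, since their levels moved between groups, with capitals for matches on either strand to 3 motifs: CTTTGA (the TCF/LEF core), TATAAA (the TATA box) and TGGGAA (the RBPJ core). No matches overlap in the windows printed.
Wnt9a, chr11:59306680-59306929, plus strand: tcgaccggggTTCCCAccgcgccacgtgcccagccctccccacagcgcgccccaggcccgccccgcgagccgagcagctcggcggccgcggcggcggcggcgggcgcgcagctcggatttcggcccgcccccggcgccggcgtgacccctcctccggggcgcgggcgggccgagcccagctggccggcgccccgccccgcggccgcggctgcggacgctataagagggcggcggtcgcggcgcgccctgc
Wnt11, chr7:98834862-98835111, plus strand: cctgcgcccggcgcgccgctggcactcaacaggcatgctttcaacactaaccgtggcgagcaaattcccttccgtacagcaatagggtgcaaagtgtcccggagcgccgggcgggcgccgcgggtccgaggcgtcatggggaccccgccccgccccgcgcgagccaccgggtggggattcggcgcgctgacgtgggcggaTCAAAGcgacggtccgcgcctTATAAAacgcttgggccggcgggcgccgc
Sfrp2, chr3:83766071-83766320, plus strand: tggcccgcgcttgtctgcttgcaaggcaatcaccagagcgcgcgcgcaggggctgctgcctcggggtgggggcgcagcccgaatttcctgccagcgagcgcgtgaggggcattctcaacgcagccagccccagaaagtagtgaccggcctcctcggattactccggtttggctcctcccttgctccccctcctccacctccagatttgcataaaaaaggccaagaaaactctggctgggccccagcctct
Dkk2, chr3:132085042-132085291, plus strand: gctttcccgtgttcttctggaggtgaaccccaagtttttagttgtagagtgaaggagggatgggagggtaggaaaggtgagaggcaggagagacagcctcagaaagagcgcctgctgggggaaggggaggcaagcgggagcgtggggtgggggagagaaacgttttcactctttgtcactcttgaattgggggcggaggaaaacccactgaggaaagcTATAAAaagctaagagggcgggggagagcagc
Tcf7l1, chr6:72789046-72789295, minus strand: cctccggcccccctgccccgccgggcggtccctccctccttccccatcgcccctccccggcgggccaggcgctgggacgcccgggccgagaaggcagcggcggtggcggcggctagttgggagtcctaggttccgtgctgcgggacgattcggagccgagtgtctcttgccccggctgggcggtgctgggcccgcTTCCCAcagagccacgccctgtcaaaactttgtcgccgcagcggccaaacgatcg
The Wnt9a window is 84.4% G and C with 48 CG dinucleotides, and that of Dkk2 55.6% with 7. Member promoters had a median of 21 CG dinucleotides, against 6 over all 32851 promoters of the table. Wnt11 holds CTTTGA on the minus strand 50 bases before this start, 1 of 2 starts the table gives for it, and TATAAA 29 bases before it. Dkk2 holds TATAAA 32 bases before its start. A match to CTTTGA is in 5 of 47 member promoters and in 13.8% of all, to TATAAA in 9 of 47 and 12.4%, and to TGGGAA in 5 of 47 and 21.6%. A match is a description of these letters only.

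Other genes of the pathway were read from 4 lists, and most did not pass. Of 35 tested pathway transducers 2 rose (Nkd2 and Ctbp2) and 1 fell (Tle5) with obesity in young mice, where 8.83% of all genes were called. Bcl9 fell with age in obese mice (3.07% of all genes), and Tle1 was higher and Bcl9 lower in aged obese than in young lean mice (10.3%). Nkd2, an antagonist that acts on Dishevelled, had a median of 9.6 CPM in lean and 19 CPM in obese young mice and rose by 1.03 ± 0.24 on the log2 scale (adjusted p = 0.0177), a call that ended without young obese 1 and 2 (0.90, adjusted p = 0.0649). Of 12 tested secretion and extracellular genes 1 rose with obesity in young mice, 1 with age in obese mice (Cthrc1), and 1 was higher in aged obese than in young lean mice, against 8.83%, 3.07% and 10.3% of all genes. Draxin, a secreted antagonist, rose with obesity in young mice from a median of 4.29 to 15.2 CPM (log2 1.38 ± 0.33, adjusted p = 0.0198), which ended without young lean 26 (1.32, adjusted p = 0.0526) or without young obese 1 and 2 (1.32, adjusted p = 0.0614). Kremen1, a Dkk receptor, was higher in aged obese than in young lean mice by 0.77 ± 0.19 (adjusted p = 0.0155), and this call held with each library left out. Of 16 tested non-canonical genes Celsr3 rose with obesity in young mice, Fuz with age in obese mice, and Daam1 and Ror2, a Wnt5a receptor, were higher in aged obese than in young lean mice, against the same shares of all genes. The calls of Ctbp2, Tle5, Tle1, Bcl9, Cthrc1, Celsr3, Fuz, Daam1 and Ror2 each ended with at least 1 library left out.

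Of 20 tested common Wnt target genes 6 were higher (Jag1, Plaur, Cd44, Runx2, Ccn4 and Tiam1) and 1 lower (Snai2) in aged obese than in young lean mice. There 5.62% of all genes were called as higher and 4.65% as lower, and the list had a median log2 difference of 0.47 (all genes -0.01). Like the other lists, it was chosen with earlier results of these data known, so its counts are no independent support for a change in Wnt output. Cd44, a hyaluronan receptor, had a median of 194 CPM in young lean and of 577 CPM in aged obese mice (log2 1.36 ± 0.28, adjusted p = 0.00661). Plaur, the urokinase receptor, was higher by 1.39 ± 0.29 (adjusted p = 0.00668), and Snai2, a transcription factor of mesenchymal cells, lower by a log2 difference of -0.85 ± 0.14 (adjusted p = 0.00267). These 3 calls held with each library left out. Jag1, a Notch ligand, ranged from 9.3 to 46.9 CPM in young lean and from 8.95 to 628 CPM in aged obese mice (log2 3.20 ± 0.81, adjusted p = 0.0155), which ended without aged obese 15 (2.33, adjusted p = 0.0758). The calls of Runx2, Ccn4 and Tiam1 also ended in at least 1 such fit. With age in obese mice Jag1 and Cd44 rose and Snai2 fell, and with obesity in young mice Tiam1 and Myc rose; against 3.07% and 8.83% of all genes, and each of these 5 calls ended with at least 1 library left out. With obesity in aged mice the 4 lists had 0 called genes, against 0.222% of all genes.

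When the obesity effect was compared between young and aged mice (interaction), edgeR called 0 members and 0.00693% of all genes, 6 members against 8.0% of all genes had an unadjusted p below 0.05, DESeq2 called 0 and voom with quality weights called 2 (Sfrp4 and Wnt5a). The median SD of log2 CPM of the 40 tested members was 0.44 in young lean, 0.447 in young obese, 0.495 in aged lean and 0.766 in aged obese libraries, against 0.292, 0.264, 0.298 and 0.383 over all genes tested. Members and all genes were not matched for level, and low counts widen this SD. Some tested members were low, such as Axin2 and Lef1 with means of 0.438 and 0.662 CPM. Wnt4 in aged obese libraries had an SD of 2.66, whereas that of Ctnnb1 in aged lean libraries was 0.0687.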

How the data were processed

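RNA of cultured adipose-derived stem cells was sequenced in 30 libraries. The authors deposited whole-number raw counts per Ensembl gene. The submitters' processing notes list STAR, HTSeq (0.7.0) and DESeq2 (1.12.4) as tools. Genome build, annotation and strand setting are not given in the sources used here; overlapping genes are therefore uncertain. The 5 lines naming no gene were left out (reads in no gene 3.94% to 8.75%, ambiguous 2.69% to 3.41%). Some table columns spelled the group with a zero for the letter O and were matched to titles. Symbols were found for 36639 of 38561 genes; exon lengths came from GENCODE M21.

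After filtering by group (filterByExpr) and TMM scaling, edgeR 4.0.16 under R 4.3.3 was used to fit all 30 libraries, quasi-likelihood, 1 coefficient for each group. Benjamini-Hochberg adjusted p below 0.05 over 14438 genes was called. CPM use the scaled totals. Alternatives were DESeq2 1.42.0, voom with quality weights (limma 3.58.1), other scaling and filters, a length and GC offset, a proliferation covariate, fits of the compared groups and left-out libraries. The procedure was also run on simulated counts with independent libraries and the same spread for all genes. That run cannot show how it handles close or outlying libraries. Labels name no batch, so none could be fitted. Members named were those called, the 3 most abundant per role, and Axin2, Lef1, Tcf7, Lgr5 and Ctnnb1. The members and gene lists were chosen with earlier results of these data known. The promoter motifs were chosen after the data were seen.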

Additional observations from a re-analysis of the deposited data

Results flagged for a closer look

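A library lay far from the rest of its group in 14 of the 104 sets of values tested (26 members in 4 groups, 13.5%). Chance alone gives about 1 in 20 for independent, normally spread values. The values here were CPM and the same libraries recurred over members, so 13.5% cannot be read as an excess. The share over all genes was not taken. In aged lean 16, Wnt11 was at 14 CPM, Fzd6 at 3.61, Fzd7 at 139.7 and Tcf7l1 at 23.6 CPM, the first 3 above and the last below the other aged lean libraries (nearest 7.13, 1.99, 82.4 and 31.1 CPM). In aged obese 15, Wnt9a was at 89.8 CPM (nearest 25.7) and Axin2 at 0.802 CPM (nearest 0.474). In young lean YL512, Wnt5a was at 44.7 CPM, Lrp6 at 156 and Lgr6 at 11.4 CPM, above the others, and Lgr4 at 57.9 CPM, below them. In young obese 22, Lgr6 was at 14.5 CPM, Tcf7 at 2.71 and Lef1 at 1.06 CPM, above the others, and Fzd7 at 61.8 CPM, below them.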

How the results depend on the processing

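Counts of called members depended on the processing. In brackets is the share of all genes called under the same setting. For age in obese mice (4, 3.07%) DESeq2 gave 8 (5.92%), voom 12 (19.9%), leaving out young obese 1 and 2 gave 8 (4.46%) and leaving out aged obese 10 and 12 gave 10 (18.3%). For obesity in young mice (3, 8.83%) no filter on low counts (1.44%) and a length and GC offset (3.76%) gave 1 each, voom 9 (29.5%) and a proliferation covariate 5 (18.7%). For obesity in aged mice (1, 0.222%) a fit of the compared groups gave 0 (0.0%), voom 2 (0.79%), the covariate 2 (0.949%) and leaving out aged obese 10 and 12 gave 0 (0.0614%). For aged obese against young lean (7, 10.3%) the compared groups gave 1 (2.96%) and voom 4 (4.81%). For the interaction (0, 0.00693%) voom gave 2 (0.63%) and leaving out young obese 1 and 2 gave 1 (0.0278%). Leaving out single libraries gave 1 to 8 (1 without aged obese 15, 8 without 10 or 16), 1 to 4 (1 without young lean 7, 26 or 27), 1 to 7 (7 without aged lean 16, 3 without aged obese 16) and 4 to 11 members (4 without aged obese 15, 11 without 16) in the first 4 comparisons, and 0 to 0 for age in lean mice and the interaction. Sfrp1 with age in obese mice turned from a log2 change of 0.36 to -0.34 with the proliferation covariate (adjusted p = 0.591). The cause was not tested. Mouse numbers that groups share mark different mice and same-numbered libraries did not deviate together throughout (correlations 0.0823 and 0.215 in young, -0.517 to 0.39 in aged mice). With the replicate block, on the few libraries with shared numbers, 0 members were called with obesity in young or aged mice, and also 0 without the block on these libraries, an alternative chosen after seeing the data. Depth limits mainly the members under 1 CPM.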
